A study of Mus musculus with 9 samples.

Results

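Tight junctions and the apical polarity complexes were examined as a group of 32 genes in the cochlear duct of mouse embryos at E14.5. The genes were listed by name (16 claudins, 2 zonula occludens scaffolds, 3 MARVEL proteins, 2 cingulins, 1 junctional adhesion molecule, 3 angulins, 3 polarity proteins and 2 MAGI scaffolds) and matched by Ensembl identifier, and all 32 were found among 54232 genes. Bulk RNA sequencing was performed on 9 libraries, 3 from WT, 3 from heterozygote and 3 from null embryos of the Prdm16 cGT strain. The cGT allele is a gene trap null of Prdm16, a zinc finger regulator of transcription. The heterozygotes carried a single trapped allele and the null embryos a pair of them in every tissue. The embryos came from intercrosses of heterozygotes on the FVB/NJ background, and each library was made from the dissected cochlear ducts of 1 embryo. The methods describe 3 littermates for each genotype and do not tie a replicate number to a litter, and p-values measure the spread between these embryos.

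Tight junctions join neighbouring epithelial cells at their apical end, where claudins form the paracellular seal and pores, occludin and its MARVEL relatives reinforce the strands, and cytoplasmic scaffolds tie the strands to actin. In the inner ear this barrier keeps the potassium-rich endolymph of the duct apart from perilymph, and mutations in several of its genes cause deafness. The tricellular corners, where the membranes of adjoining cells meet, are sealed by tricellulin together with the angulins, and the Par and Crumbs complexes place the junction at the boundary of the apical membrane.

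Library totals were 25540212 to 29450752 counts for WT, 24767705 to 27696846 for heterozygotes and 24095322 to 30819118 for null embryos. A floor of 3 counts corresponded to 0.0968 to 0.126 CPM (counts scaled by TMM to a common library size), and this floor covers counting error only. Prdm16 RNA fell from 202 ± 21.0 CPM in WT to 23.4 ± 4.16 CPM in null embryos (SD, n = 3). Marker levels differed both within and between genotypes. The summed level of 10 mesenchyme markers was highest in WT embryos 1 and 2 (1292 and 1707 CPM) and null embryo 3 (1954 CPM) and lay between 658 and 882 CPM in the other 6 libraries, with Tbx18 at 49.1, 94.3 and 50.3 CPM in those 3 libraries and at 1.12 to 7.36 CPM elsewhere. Lum and Dcn, which held most of the sum in those 6 libraries, did not follow the split (486 to 692.5 CPM and 118 to 183 CPM over all 9). The single-cell data of the paper list Dcn among genes enriched in Kölliker's organ. The sum of 8 endothelium markers followed the same split (104.5, 86.5 and 66.9 CPM against 8.64 to 13.2 CPM). The sum of 7 epithelium markers was 1612 to 1790 CPM in WT, 1740 to 1778 CPM in heterozygotes and 1727, 2108 and 1556 CPM in null embryos 1, 2 and 3, and Epcam, which marks epithelium, was at 603 CPM or above in every library. The sum of 5 cartilage markers was 12820 CPM in null embryo 3 and 5448 to 6455 CPM in the other 8 libraries, with Acan at 501 CPM against 1.02 to 7.02 CPM. Between genotypes, the sum of 6 markers of Kölliker's organ was 3248 to 4103 CPM in WT and 1640 to 1907 CPM in null embryos (6 of 6 called lower by edgeR), and that of 8 roof markers was 8223 to 9637 CPM in WT and 11030 to 14440 CPM in null embryos (0 of 8 called). Most of the roof sum was Oc90 (7812 ± 609 CPM in WT and 11330 ± 1785 CPM in null embryos, SD, n = 3), while the means of Lrp2 (529 and 392 CPM) and Kctd8 (53.1 and 47.5 CPM) were lower in null embryos than in WT, with ranges that overlapped. The sums of 6 prosensory markers (784 to 842 CPM in WT and 972 to 1228 CPM in null embryos, 3 of 6 called higher), 5 outer sulcus markers (1233 to 1409 and 1449 to 2032 CPM, 0 called) and 6 melanocyte markers (62.2 to 144 and 19.0 to 51.3 CPM, 0 called) did not overlap either. The part of these domains and cells in the null differences described for the junction genes was not tested. Every marker on the Kölliker's organ list is also a gene that the paper reports as lower in null embryos of this experiment. Most markers on the prosensory list are likewise genes that it reports as higher. The direction of both sums was thus known beforehand and is not an independent measure of either domain. In bulk RNA, fewer cells of a type and less RNA per cell cannot be told apart.

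Levels were first compared between the genes in WT embryos, as CPM per kilobase of exon. Claudins led the group. Cldn6, a claudin of embryonic epithelia, was highest with 319 ± 13.7 CPM per kb (SD, n = 3), 2.21 times the level of its chromosomal neighbour Cldn9, whose loss causes deafness in mice (145 ± 10.3 CPM per kb). Cldn3 followed with 81.1 ± 9.38, and then F11r, which encodes the junctional adhesion molecule JAM-A, with 55.4 ± 3.34, Cldn7 with 41.2 ± 5.41 and Cldn4 with 39.1 ± 4.66 CPM per kb. The WT ranges of the 5 highest genes were separate from one another, while those of Cldn7 and Cldn4 overlapped. Measured per kb of the longest transcript instead, the same 5 genes led, with Cldn7 at 60.1 and F11r at 58.5.

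Among the remaining genes the scaffold Tjp1, which encodes ZO-1, was at 28.5 ± 1.67 CPM per kb, and 20 of the 32 genes reached 10 CPM per kb. These 20 held 13 of 16 genes that are not claudins and 7 of 16 claudins. Between 9.24 and 1.23 CPM per kb lay Cldn11, which builds the basal cell barrier of the stria vascularis, Magi3, Marveld3, Cldn14, a deafness gene of the reticular lamina, and Cldn23. A further 7 genes were under 1 CPM per kb: Cldn15, Cldn1, Cldn10, Ildr2, Cldn2, Cldn19 and Cldn22. Of 31 pairs of neighbours in the order of levels, 14 had WT ranges that did not overlap.

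**Figure D1:**
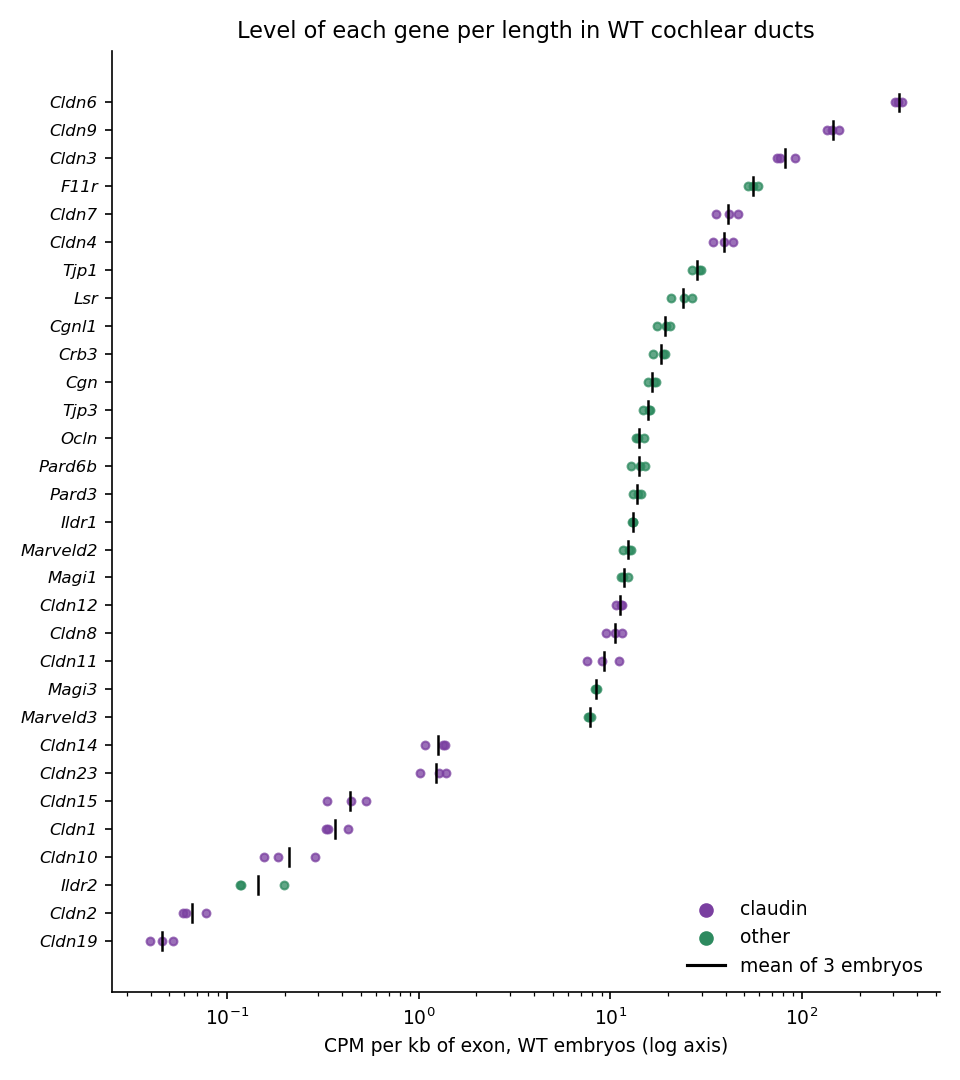
Level of 31 genes in WT embryos on a log axis, in CPM per kb of exon, with 1 point per embryo and a black bar at the mean of 3 embryos. Cldn6, Cldn9 and Cldn3 stand above all other genes and a gap separates Marveld3 (7.80 CPM per kb) from Cldn14 (1.27 CPM per kb). Cldn22, with 0 counts, is not drawn.

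The claudin RNA of the duct was thus made up of few genes. Per length, Cldn6 gave 48.4% ± 1.05 of the summed claudin level in WT embryos, Cldn9 21.9% ± 0.151, Cldn3 12.3% ± 0.672, Cldn7 6.22% ± 0.432 and Cldn4 5.91% ± 0.332 (SD, n = 3). Together these 5 genes made up 94.7% ± 0.385 in WT, 95.4% ± 0.437 in heterozygote and 94.5% ± 1.39 in null embryos. Cldn8, a barrier claudin of tight epithelia, took 1.60% ± 0.127 of the sum in WT, 1.69% ± 0.155 in heterozygotes and 2.10% ± 0.182 in null embryos, and its share in each null library (1.98%, 2.00% and 2.31%) was above that in each of the other 6 libraries. Of the 3 angulins, Lsr was at 23.9 ± 3.08 CPM per kb and Ildr1, mutated in hereditary deafness, at 13.1 ± 0.0801, a ratio of 1.82, while Ildr2 was at 0.145 ± 0.0471.

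Several of these genes are neighbours in the genome (mm10, GENCODE). Cldn6 (chr17:23679249-23682446, plus strand) and Cldn9 (chr17:23682584-23684026, minus strand) end 137 bases apart. Cldn4 (chr5:134945119-134946934) and Cldn3 (chr5:134986214-134987472) are divergent genes separated by 39279 bases. Ocln (chr13:100496507-100552718), which encodes occludin, and Marveld2 (chr13:100595957-100616971), which encodes tricellulin, lie on the minus strand with 43238 bases between them. Exons on opposite strands can share reads where strand is not used in counting, and the strand setting is not given in the sources used here. Cldn22, with 0 counts in all 9 libraries, shares all 995 of its exon bases with Wwc2 on the other strand, so its 0 is not a measure of absence. Lsr shares 946 of 2172 exon bases with Gm4673 and Ildr2 911 of 8251 with 5330438I03Rik, both antisense genes, and their values carry that uncertainty.

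Null and WT embryos did not overlap for Cgnl1 and Cgn, the pair of cingulins, nor for Ildr1, among other genes. The promoter sequences of 4 genes, these 3 and Cldn6, the most abundant claudin, are shown. They come from RefSeq (GRCm38.p6) and run from 250 bases before the RefSeq start to that start or, for Cldn6 and Cgn, to the base before the annotated gene. Cldn6 is read from chr17:23679115-23679248 on the plus strand, Cgnl1 from chr9:71771603-71771852 on the minus strand, Cgn from chr3:94786493-94786732 on the minus strand and Ildr1 from chr16:36693728-36693977 on the plus strand. Capitals mark matches on either strand to CACCTG, an E-box that Snail and Zeb repressors of epithelial genes can bind, or to GGGCGG, the core of the GC box. TATAAA was searched as well and had no match in these 4.
Cldn6: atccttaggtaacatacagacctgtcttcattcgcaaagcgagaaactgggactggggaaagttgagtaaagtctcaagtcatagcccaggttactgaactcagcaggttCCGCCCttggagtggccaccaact
Cgnl1: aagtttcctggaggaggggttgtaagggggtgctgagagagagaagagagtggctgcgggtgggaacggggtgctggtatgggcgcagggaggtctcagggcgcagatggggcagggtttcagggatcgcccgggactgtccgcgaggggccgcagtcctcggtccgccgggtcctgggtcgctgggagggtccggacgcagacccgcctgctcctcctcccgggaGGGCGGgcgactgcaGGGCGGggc
Cgn: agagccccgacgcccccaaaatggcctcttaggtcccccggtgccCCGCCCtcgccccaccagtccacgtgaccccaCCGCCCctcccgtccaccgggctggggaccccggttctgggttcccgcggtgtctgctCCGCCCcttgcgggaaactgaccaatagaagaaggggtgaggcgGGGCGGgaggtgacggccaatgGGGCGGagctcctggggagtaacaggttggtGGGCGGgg
Ildr1: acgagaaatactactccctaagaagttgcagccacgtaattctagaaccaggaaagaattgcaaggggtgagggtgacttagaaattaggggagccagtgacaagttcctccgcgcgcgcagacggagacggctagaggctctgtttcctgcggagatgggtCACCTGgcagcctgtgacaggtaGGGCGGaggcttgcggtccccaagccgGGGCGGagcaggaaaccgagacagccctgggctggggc
The stretch before Cldn6 held 1 GGGCGG match and had 49.3% G and C, that before Cgnl1 held 2 matches at 70.8%, that before Cgn held 6 at 70.8%, and that before Ildr1 held 2, with 1 CACCTG match, at 59.2%. RefSeq promoters were found for 28 of the 32 genes, with 41 promoters in all, some genes having several overlapping ones. None was found for Cldn8, Cldn9, Cldn23 or Marveld3. CACCTG was found in 16 of the 41 (39.0%) against 17.2% of all 32851 promoters of the same 250 bases, GGGCGG in 28 (68.3%) against 32.7%, and TATAAA in 4 (9.76%) against 12.4%. These matches describe letters in the windows, and no binding was measured.

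Null embryos were then compared with WT to ask which junction genes changed when Prdm16 was lost. Of the 32 genes, 29 passed the filter on low counts (all but Cldn2, Cldn19 and Cldn22), and none of them passed the threshold of an edgeR adjusted p under 0.05 with an absolute log2 fold change over 0.5 (0 higher and 0 lower, against 0.92% and 0.786% of all 17168 genes tested). At an unadjusted p under 0.05 there were 6 (20.7%, against 12.2% of all genes), 3 higher (6.48% of all genes) and 3 lower (5.76%). DESeq2 called 1 of the 29, Cldn8, against 3.55% of all genes, and limma-voom called 0, against 1.75%. With the fold changes of the 29 genes from -0.45 to 0.59, the 95% interval lay within 0.5 on either side of 0 for 13 genes. Null and WT embryos did not overlap for 4 genes that were higher and 3 that were lower (10.1% and 8.95% of all genes). The smallest two-sided p of an exact permutation test on 3 against 3 embryos is 0.1, and the p-values given are therefore from models over all genes.

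Among claudins, 12 of the 13 tested had positive log2 fold changes, with a median of 0.19 against 0.01 for all genes, of which 51.9% were positive. Cldn8 had the largest difference. It was at 24.9, 22.5 and 27.1 CPM in WT embryos 1, 2 and 3, at 27.3, 29.0 and 25.0 CPM in heterozygotes, and at 33.0, 43.0 and 36.4 CPM in null embryos. Every null embryo was above every other embryo. The null mean was 151% of WT (log2 fold change 0.59, standard error 0.129, 95% interval 0.29 to 0.89, edgeR adjusted p = 0.0794). The DESeq2 adjusted p of this gene was 0.00196.

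Cldn23, a claudin of low abundance here, was at 2.37, 1.88 and 2.58 CPM in WT, 3.01, 3.46 and 3.03 CPM in heterozygotes and 2.72, 3.81 and 3.10 CPM in null embryos. Heterozygote and null embryos were all above WT and overlapped each other. The null difference from WT was 0.49 on the log2 scale (standard error 0.235, edgeR adjusted p = 0.46).

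The abundant claudins differed by less than the spread between null embryos. Cldn6 was at 526, 548 and 573 CPM in WT, 578.5, 611 and 621 CPM in heterozygotes and 625.5, 781 and 561 CPM in null embryos, so that 1 null embryo fell among WT values (log2 fold change 0.25, 95% interval -0.05 to 0.55, edgeR adjusted p = 0.494). Cldn9 was at 194.5, 208 and 224 CPM in WT, 204, 194 and 215 CPM in heterozygotes and 211, 283 and 191 CPM in null embryos (0.13, -0.21 to 0.46, edgeR adjusted p = 0.783). Cldn3, a sealing claudin, was at 93.7, 97.1 and 116 CPM in WT, 97.9, 93.5 and 99.6 CPM in heterozygotes and 93.5, 131 and 102 CPM in null embryos (0.09, -0.24 to 0.42, edgeR adjusted p = 0.841). For these 3 genes, and for Cldn7 and Cldn4, the highest value of all 9 libraries was in null embryo 2.

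Cldn7 was at 69.4, 80.8 and 90.4 CPM in WT, 85.1, 87.0 and 87.2 CPM in heterozygotes and 90.0, 114 and 79.5 CPM in null embryos (0.23, -0.12 to 0.59, edgeR adjusted p = 0.605). Cldn4, a further sealing claudin, was at 71.0 ± 8.47 CPM in WT and 84.7 ± 19.5 CPM in null embryos (0.25). Cldn14 was at 2.92, 2.86 and 2.31 CPM in WT, 3.41, 2.88 and 2.63 CPM in heterozygotes and 2.85, 3.36 and 1.93 CPM in null embryos, and its interval of -0.61 to 0.62 leaves a change of that size within counting and embryo error. The other 4 tested claudins, Cldn12, Cldn15, Cldn1 and Cldn10, had log2 fold changes of 0.05 to 0.46 and adjusted p-values of 0.528 or more with edgeR, and all but Cldn12 were under 3 CPM in every library.

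Cldn11 was uneven within the null group. It was at 17.0, 20.7 and 14.2 CPM in WT, 12.4, 8.39 and 6.50 CPM in heterozygotes and 10.9, 10.6 and 28.9 CPM in null embryos. The 2 low null embryos were below every WT embryo and null embryo 3, the library with 1954 CPM of mesenchyme and 12820 CPM of cartilage markers, was above every other library. Its fold change on the log2 scale was -0.05 (95% interval -0.94 to 0.84, edgeR adjusted p = 0.972) and became -0.69 without null embryo 3 (standard error 0.181, edgeR adjusted p = 0.104).

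The scaffolds and MARVEL proteins came next. Tjp1 was at 226, 233 and 208 CPM in WT, 208, 223 and 210.2 CPM in heterozygotes and 225, 152 and 235 CPM in null embryos. The low value belonged to null embryo 2, in which the abundant claudins were highest. Its log2 fold change was -0.13 (95% interval -0.49 to 0.23, edgeR adjusted p = 0.792), and that of Tjp3, which encodes ZO-3, was also -0.13 (edgeR adjusted p = 0.605).

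Ocln was at 57.2, 59.2 and 63.2 CPM in WT, 61.0, 59.8 and 60.9 CPM in heterozygotes and 65.5, 58.4 and 55.4 CPM in null embryos. This gave a log2 fold change of -0.01 with a 95% interval of -0.22 to 0.21. Marveld2 was at 43.4, 39.6 and 42.6 CPM in WT, 45.0, 45.0 and 45.6 CPM in heterozygotes and 45.7, 47.0 and 33.4 CPM in null embryos (0.00, -0.32 to 0.32, edgeR adjusted p = 0.997). Null embryo 3 was the low library for this gene. Marveld3, a further MARVEL protein of the strands, was at 25.5, 25.3 and 26.1 CPM in WT, 31.2, 29.8 and 30.3 CPM in heterozygotes and 34.8, 36.1 and 30.2 CPM in null embryos, so that all 6 embryos with a trapped allele were above all WT embryos. The null difference was 0.39 (95% interval 0.15 to 0.63, edgeR adjusted p = 0.145).

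The cingulins, which link the junction to actomyosin and to regulators of RhoA, had fold changes of opposite sign. Cgnl1, which encodes paracingulin, was at 153, 138 and 161 CPM in WT, 184, 140 and 153 CPM in heterozygotes and 204, 202 and 181 CPM in null embryos (log2 fold change 0.37, 95% interval 0.17 to 0.57, edgeR adjusted p = 0.0973). Cgn, which encodes cingulin, was at 104, 94.2 and 101 CPM in WT, 109, 94.1 and 91.9 CPM in heterozygotes and 85.8, 70.5 and 63.6 CPM in null embryos. The null embryos were the 3 lowest of all 9, and their mean was 73.3% of WT (log2 fold change -0.45, 95% interval -0.72 to -0.19, edgeR adjusted p = 0.128). With DESeq2 the adjusted p of Cgn was 0.0143, and its log2 fold change of -0.45 was under the threshold of 0.5 in size. Without null embryo 1 the log2 fold change of Cgn was -0.58, with an edgeR adjusted p of 0.047, which is past the threshold.

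F11r was at 147.5, 138.5 and 156 CPM in WT, 162.5, 142 and 154 CPM in heterozygotes and 146, 203 and 136 CPM in null embryos, with the high value again in null embryo 2 (log2 fold change 0.13, 95% interval -0.21 to 0.47, edgeR adjusted p = 0.779). The angulin Ildr1 had the lowest adjusted p of the group. It was at 56.7, 56.3 and 56.0 CPM in WT, 56.8, 46.2 and 54.3 CPM in heterozygotes and 44.9, 42.6 and 37.5 CPM in null embryos. All null embryos were below all others, with a mean of 74.0% of WT (log2 fold change -0.44, standard error 0.0916, 95% interval -0.65 to -0.23, edgeR adjusted p = 0.0663). Its fold is under the threshold of 0.5 whatever its p, which was 0.00277 after adjustment with DESeq2. Lsr, the angulin known as the lipolysis-stimulated receptor, was lower by a log2 value of -0.16 (edgeR adjusted p = 0.659).

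**Figure D2:**
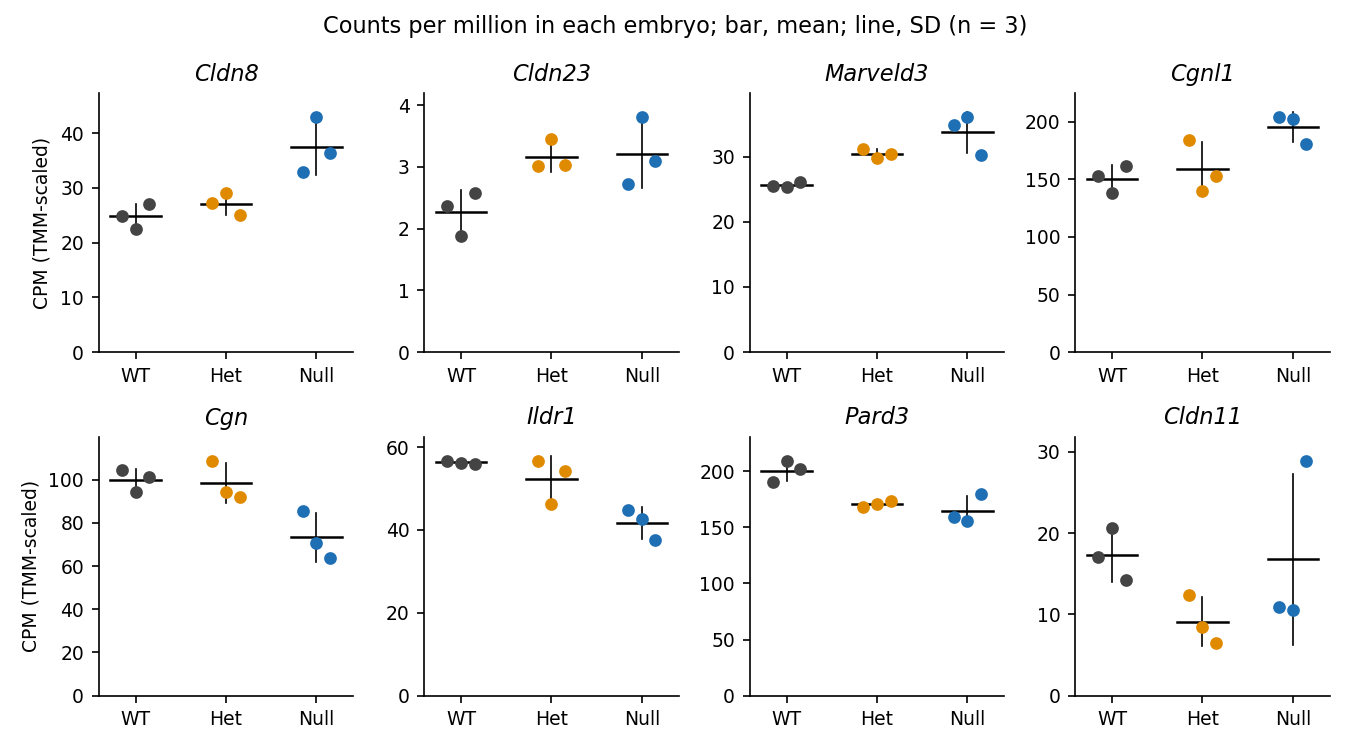
CPM in each embryo for 8 genes, with axes from 0, the genotypes WT, Het (heterozygote) and Null on the x axis, a bar at the mean and a line for the SD (n = 3). The null embryos are separate from WT for all genes but Cldn11, in which null embryo 3 lies at 28.9 CPM and the other 2 null embryos at 10.6 and 10.9 CPM.

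Of the polarity genes, Pard3, which encodes the Par3 scaffold of the Par complex, was at 191, 209.5 and 201.5 CPM in WT, 168, 171 and 174 CPM in heterozygotes and 159, 155.5 and 179.5 CPM in null embryos. All 6 embryos with a trapped allele were below all WT embryos. Null embryos differed from WT by -0.29 on the log2 scale (95% interval -0.48 to -0.10, edgeR adjusted p = 0.183). Its partner Pard6b was at 47.9 ± 4.11 CPM in WT and 53.4 ± 4.28 CPM in null embryos (log2 fold change 0.15). Crb3, the epithelial Crumbs protein of the apical membrane, was at 28.6 ± 2.07 and 35.2 ± 8.61 CPM (0.30, 95% interval -0.10 to 0.69), with 45.1 CPM in null embryo 2. The MAGI scaffolds differed little, with log2 fold changes of 0.03 for Magi1 (95% interval -0.16 to 0.21) and -0.03 for Magi3 (-0.29 to 0.23).

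Heterozygotes were compared with WT to see whether a single trapped allele altered the same genes. This comparison and the null comparison share the WT libraries, so the values stand side by side and are not independent. Again none of 29 genes was called by edgeR (0 higher and 0 lower, against 0.0521% and 0.0984% of all 17269 genes), 6 had an unadjusted p under 0.05 (4 higher and 2 lower, 20.7% against 13.1% of all genes, of which 5.8% were higher and 7.33% lower), and DESeq2 called 1, Cldn11 (1.72% of all genes), and limma-voom 0 (0.0637%). Heterozygote and WT embryos did not overlap for 6 genes that were higher (Cldn6, Cldn23, Tjp3, Marveld2, Marveld3 and Crb3) and 2 that were lower (Cldn11 and Pard3), against 8.98% and 8.99% of all genes. The summed levels of roof (9836 to 10380 CPM in heterozygotes), prosensory (979 to 999.8 CPM) and 7 glia markers (1681 to 1755 CPM, against 1533 to 1635 CPM in WT) were also above every WT embryo, with 0 markers of these lists called, and their part in the differences was not tested. Log2 fold changes were positive for 15 of 29 genes (50% of all genes), with a median of 0.02.

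Cldn11 had the largest difference of the group in any comparison, with heterozygotes at 52.6% of WT (log2 fold change -0.93, standard error 0.219, 95% interval -1.42 to -0.44, edgeR adjusted p = 0.0947). Among the 6 libraries low in mesenchyme markers, in a fit chosen after seeing the data, it was -0.64 with an edgeR adjusted p of 1.00, and there WT was a single embryo assumed to vary like the other groups. Without WT embryo 3 it was -1.05 with an edgeR adjusted p of 0.0187. WT embryos 1 and 2, which held more Cldn11 than WT embryo 3, also held more mesenchyme and endothelium RNA. The sums of 6 melanocyte markers (62.2 to 144 CPM in WT and 28.3 to 48.5 CPM in heterozygotes) and 8 blood markers (67.2 to 190 and 26.6 to 47.1 CPM) were lower in every heterozygote than in every WT embryo, with 0 markers of either list called. The part of these cells in the difference was not tested beyond that fit.

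Pard3 had the lowest p in this comparison (log2 fold change -0.23, standard error 0.0447, 95% interval -0.33 to -0.13, unadjusted p = 0.000454, edgeR adjusted p = 0.0649). The 3 heterozygotes lay within 168 to 174 CPM, below every WT embryo and inside the range of the null embryos. Marveld3 was higher by 0.25 on the log2 scale (95% interval 0.09 to 0.41, edgeR adjusted p = 0.156). Cldn8 (0.13), Cgnl1 (0.08), Cgn (-0.03) and Ildr1 (-0.11), which did not overlap between null embryos and WT, overlapped between heterozygotes and WT.

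Null embryos were compared directly with heterozygotes as well, using the same null libraries. Of 29 genes, 0 were called higher and 0 lower by edgeR (0.293% and 0.322% of all 17067 genes), 5 had an unadjusted p under 0.05 (11.4% of all genes), 2 higher (6.14% of all genes) and 3 lower (5.25%), and DESeq2 and limma-voom called 0 (2.12% and 0.586% of all genes). Embryos did not overlap for Cldn8 and Cldn4, which were higher in null embryos, and for Tjp3, Cgn and Ildr1, which were lower (9.06% and 9.1% of all genes). Of the marker sums, Kölliker's organ was lower in every null embryo than in every heterozygote (3045 to 3823 CPM in heterozygotes, 5 of 6 markers called lower), as was glia (1470 to 1672 CPM in null embryos, 0 called). The sums of roof and blood markers (blood 55.2 to 96.8 CPM in null embryos) were higher in every null embryo, with 0 called. That of endothelium markers was 13.2, 12.97 and 66.9 CPM in null embryos 1, 2 and 3 and 11.1 to 12.86 CPM in heterozygotes, with 0 called. Null embryos 1 and 2 were thus close to the heterozygotes in endothelium markers. The part of all these markers in the differences was not tested. The lower Kölliker's organ markers come from the same null libraries as in the comparison with WT and are not independent of it. Positive log2 fold changes were found for 18 of 29 genes (52.3% of all genes). Cldn8 was at 138% of the heterozygote level (log2 fold change 0.47, 95% interval 0.19 to 0.74, edgeR adjusted p = 0.188), Cgn at 74.5% (-0.43, -0.71 to -0.14, edgeR adjusted p = 0.252) and Ildr1 at 79.5% (-0.33, -0.58 to -0.08, edgeR adjusted p = 0.315). Tjp3 was at 64.7 ± 3.03 CPM in heterozygotes and 53.3 ± 3.39 CPM in null embryos, with WT between them at 58.2 ± 2.61 CPM (-0.28, -0.47 to -0.09, edgeR adjusted p = 0.256).

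**Figure D3:**
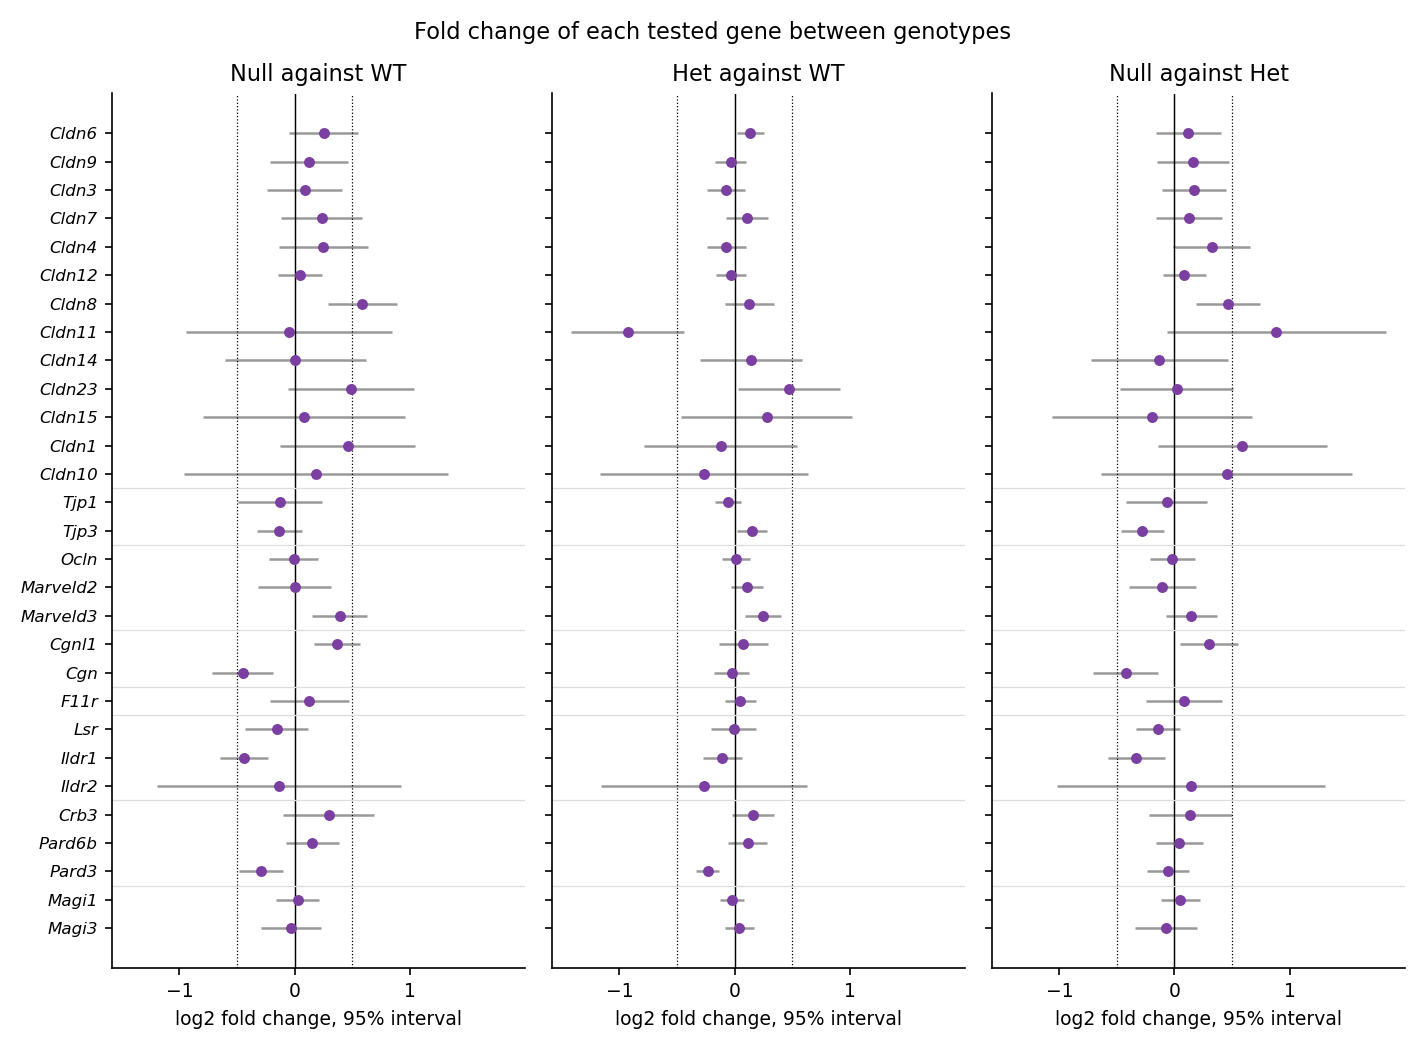
Log2 fold change of the 29 tested genes with its 95% interval in each comparison, grouped by role, with dotted lines at -0.5 and 0.5. No gene passed the threshold. Cldn8, Marveld3, Cgnl1, Cgn, Ildr1 and Pard3 have intervals that exclude 0 between null embryos and WT.

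The null embryos varied more among themselves than embryos of the other genotypes, in these genes as in all genes. The median coefficient of variation over the 29 tested genes was 17.2% in null embryos, 7.25% in WT and 5.11% in heterozygotes, and over 17796 genes it was 15.4%, 8.63% and 7.96%. Null embryo 2 held the highest value of all 9 libraries for 12 of 29 tested genes, 7 of them among the 13 claudins, and null embryo 3 the lowest for 11. The summed claudin level was 1045 to 1181 CPM in WT, 1128 to 1177 CPM in heterozygotes and 1194, 1528 and 1137 CPM in null embryos 1, 2 and 3. The epithelium markers, as given above, were also highest in null embryo 2 and lowest in null embryo 3, and Krt18, a keratin of simple epithelia, was at 343 CPM in the former and 184 CPM in the latter. Not all markers of the list followed the sum, since in null embryo 2 Esrp1 was at 239 CPM, within the WT range, and Grhl2 was at 116 CPM, which was below every WT and heterozygote library.

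With the epithelium marker level as a covariate, in a fit chosen after seeing the data, the median log2 fold change of the 29 genes between null and WT was 0.01 in place of 0.08, and that of the claudins 0.11 with 10 of 13 positive. In that fit the values were 0.52 for Cldn8 (edgeR adjusted p = 0.0647), -0.46 for Cgn (0.126) and -0.46 for Ildr1 (0.0558). Without null embryo 2, the claudin median was 0.10 with 10 of 13 positive, and Cldn8 was at 0.48. Without null embryo 3 the claudin median was 0.32 with 11 of 13 positive, and the median of the 29 genes was 0.20. Among the 6 libraries low in mesenchyme markers, Cldn8 was at 0.50, Cgn at -0.37 and Ildr1 at -0.35. In that fit WT was a single embryo assumed to vary like the other groups.

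**Figure D4:**
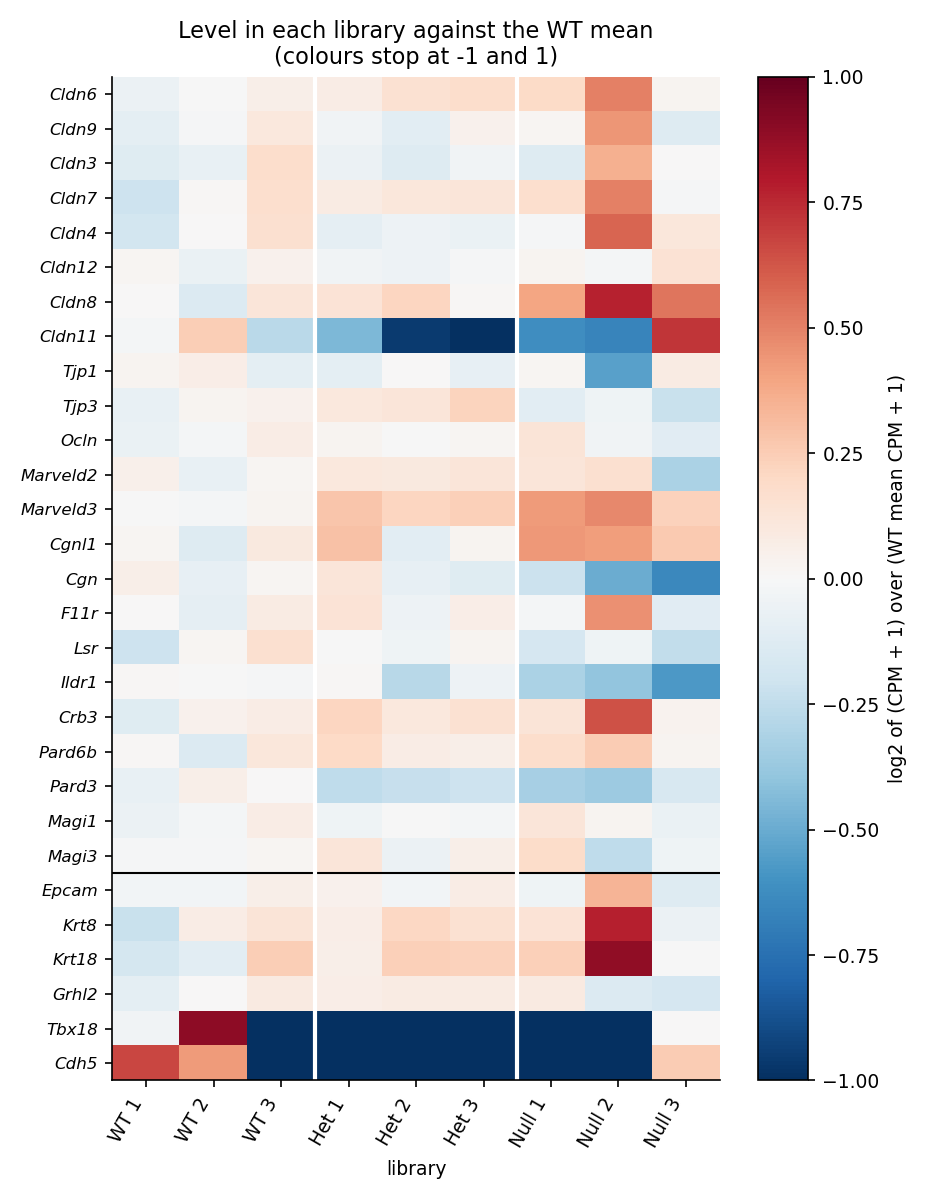
Level of 23 genes (WT mean above 5 CPM) and 6 markers below the black line in each library, as log2 of CPM plus 1 over the WT mean plus 1, with colours that stop at -1 and 1. Null embryo 2 is high in Cldn6, Cldn9, Cldn3, Cldn7, Cldn4, F11r and Crb3 as well as in Epcam, Krt8 and Krt18 but not in Grhl2. Cldn11 is low where Tbx18 is low in 2 of 3 null and all heterozygote libraries. WT embryo 3 is also low in Tbx18 (7.36 CPM) but holds Cldn11 at 14.2 CPM, above every heterozygote library.

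A further 47 genes of tight junctions and polarity, listed by hand, gave the setting of the pathway. Between null and WT, 37 were tested, 1 was called higher and 0 lower (0.92% and 0.786% of all genes), 3 had an unadjusted p under 0.05 (8.11% against 12.2% of all genes), and their median log2 fold change was 0.01. The called gene was Llgl2, an epithelial member of the Lgl family that acts with Scribble and Dlg to hold the basolateral domain. It was at 140, 142 and 162 CPM in WT, 183, 166 and 169 CPM in heterozygotes and 219, 236.5 and 190.3 CPM in null embryos, with all heterozygotes above WT and all null embryos above the heterozygotes. Its log2 fold change was 0.54 in null embryos (standard error 0.103, 95% interval 0.30 to 0.77, edgeR adjusted p = 0.049) and 0.22 in heterozygotes (edgeR adjusted p = 0.151). The call is close to both thresholds and held in 6 of 16 other settings, in all of which the fold change lay between 0.47 and 0.62.

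Cldn24, a claudin of low abundance picked out after its values were seen, was at 4.07, 2.04 and 4.71 CPM in WT, 5.94, 4.21 and 4.60 CPM in heterozygotes and 7.88, 7.58 and 9.04 CPM in null embryos. All null embryos were above all others. The null mean was 226% of WT (log2 fold change 1.17, standard error 0.298, edgeR adjusted p = 0.13), and the gene was called with DESeq2, with no filter on low counts and with all 9 libraries in one fit.

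Cldn5, the claudin of endothelium, was at 2.22, 2.08 and 0.678 CPM in WT, 0.281, 0.324 and 0.402 CPM in heterozygotes and 0.124, 0.0645 and 2.22 CPM in null embryos. The 3 libraries high in endothelium markers were the 3 highest for Cldn5. In heterozygotes against WT, 0 of 37 genes of this second list were called and 11 had an unadjusted p under 0.05 (29.7% against 13.1% of all genes). Of the 11, 5 were higher and 6 lower (5.8% and 7.33% of all genes). Cldn5 differed by -2.28 on the log2 scale (edgeR adjusted p = 0.0766). Between null embryos and heterozygotes 0 of 36 were called and 4 had an unadjusted p under 0.05 (11.1% against 11.4% of all genes).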

How the data were processed

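Gene counts were taken as deposited, with 1 file of whole-number counts per embryo and no normalization. Per the labels, the submitters' processing notes name cutadapt 1.13, STAR, HTSeq 0.6.1p1, DESeq2 and mm10, and the methods describe TruSeq mRNA libraries read as single reads on an Illumina HiSeq. The authors' strand setting and annotation release are not given in the sources used here. Samples were grouped by the genotype in their titles. Gene names, positions and exon lengths were read from the GENCODE annotation of mm10. Libraries within a genotype differed by more than sampling noise (chi-square per gene 5.7 to 17.9 for pairs of WT or of heterozygote libraries and 37.1 to 68.8 for pairs of null libraries).

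Genotypes were compared 2 at a time, on 6 libraries each time, in R 4.3.3 with edgeR 4.0.16 (TMM factors, filterByExpr with a minimum count of 10, quasi-likelihood test, Benjamini-Hochberg adjustment over all genes tested). A gene was called at an adjusted p under 0.05 where its log2 fold change was also over 0.5 in size. CPM values used TMM factors of all 9 libraries, and levels between genes were divided by the kilobases of merged exon. The procedure was tested on simulated data. The members and lists were chosen with earlier results of these data known. Values in every library are given for genes whose null and WT embryos did not overlap, the 5 highest per length in WT, the hearing-linked Cldn9, Cldn11, Cldn14, Marveld2, Ocln, Ildr1 and Tjp1, called genes of the second list and Cldn5. A further gene of that rule is not reported here. The alternatives were DESeq2 1.42.0, limma-voom (limma 3.58.1), RLE factors or total counts alone, no filter or a mean count over 100, a single fit of all 9 libraries, a block for the replicate number, other fold thresholds, the longest transcript as length, and leaving out each embryo. An epithelium marker covariate and a fit of the 6 libraries low in mesenchyme markers were added after seeing the data.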

Additional observations from a re-analysis of the deposited data

How the results depend on the processing

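Each comparison was run under 18 other settings, of which those with an epithelium marker covariate and with the 6 libraries low in mesenchyme markers were chosen after seeing the data. Of the 29 genes, 0 were called in 14 settings between null embryos and WT, in 14 between heterozygotes and WT and in all 18 between null embryos and heterozygotes. Between null embryos and WT, 1 gene (Cldn8) was called higher with DESeq2, with no filter on low counts and with all 9 libraries in one fit, and leaving out single embryos gave 0 to 1 lower, the call being Cgn without null embryo 1. Between heterozygotes and WT, 1 gene (Cldn11) was called lower with DESeq2, with no filter and with the replicate block, and leaving out single embryos gave 0 to 1 lower, the call being Cldn11 without WT embryo 3. Settings that only changed a threshold left the fold changes as they were. Over the other settings, 15 or 16 per gene, the log2 fold change of the members took 458 values in each comparison. Its sign changed in 40, 27 and 25 of them for null against WT, heterozygote against WT and null against heterozygote, and no gene changed sign in the comparison in which a setting called it.

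Of the other junction and polarity genes, the number called higher between null embryos and WT was 2 with DESeq2, no filter or all 9 libraries in one fit (Llgl2 and Cldn24), 0 with limma-voom, total counts only, the replicate block, the epithelium covariate or the 6 libraries, and 0 to 1 when single embryos were left out, with Llgl2 called without null embryo 3 and in no other such fit. Leaving out single embryos gave 0 to 1 lower, Cldn5 without null embryo 3. Between heterozygotes and WT, 2 were called lower with DESeq2, 3 with no filter and 0 to 3 without single embryos (3 without WT embryo 3). Between null embryos and heterozygotes DESeq2 called 1 higher (Cldn24).

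The correlation of deviations between libraries of the same replicate number was -0.31 to 0.33 over 9 pairs. It was above 0.1 in 3 of them (0.328 and 0.226 between heterozygotes and WT, 0.19 between null embryos and heterozygotes) and not in all pairs of any comparison, so the numbers were not taken to pair the samples. With the replicate block, Cldn11 was at -0.95 in heterozygotes against WT (edgeR adjusted p = 0.0313) and the all-gene calls went from 9 higher and 17 lower to 32 and 165. Between null embryos and WT they went from 158 and 135 to 65 and 68, and between null embryos and heterozygotes from 50 and 55 to 22 and 30. DESeq2 called 329 and 280, 54 and 243, and 195 and 166 in the same order of null against WT, heterozygote against WT and null against heterozygote. Depth limited Cldn2, Cldn19, Cldn15, Cldn10, Cldn1 and Ildr2, with 2 to 70 counts per library. The cause of these differences between settings was not tested.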
